A study of Oryzias latipes with 15 samples.

Results

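The effect of 10 mg/L potassium perchlorate (KClO4) in medaka that also received vitamin C was examined in RNA from testis. Libraries were taken by their labels alone: 3 libraries of fish given 10 mg/L KClO4 plus 3 mg/L vitamin C were set against 3 libraries of fish given 3 mg/L vitamin C without perchlorate. These 6 libraries belong to a series of 15, with 3 libraries in each of 5 groups. Both groups compared received vitamin C, so the comparison shows what the high dose of perchlorate changed on that background. The same dose without vitamin C (10 mg/L KClO4 against untreated control, 3 libraries each) was used to ask whether the dose effect differed between the backgrounds. The other group received 0.01 mg/L KClO4 and entered the shared estimate of spread and the mean level that decided which genes were tested. The sources used here name neither the strain, the age, the route nor the length of treatment, and they do not say whether a library came from 1 fish or from a pool, so p-values measure the spread between these libraries.

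Perchlorate competes with iodide at the sodium-iodide symporter and so lowers the making of thyroid hormone, which in fish acts on many tissues, the testis among them. Vitamin C (ascorbate) is an antioxidant and a cofactor of enzymes that hydroxylate collagen and oxidise methylated DNA. In the fish testis germ cells develop from spermatogonia through meiosis to sperm inside cysts of Sertoli cells, with hormone-making Leydig cells between the lobules. Clotting factors, complement proteins and plasma apolipoproteins, which come up below, are made mainly by the liver.

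The 3 libraries of perchlorate plus vitamin C held 21.3, 14.1 and 10.5 M reads, and the vitamin C libraries held 15.04, 13.8 and 7.86 M, within a series range of 3.21 to 21.3 M. The germ cell RNA helicase gene ddx4 was high in all 6 libraries. It had 15164, 11158 and 12695 normalized read counts in perchlorate plus vitamin C libraries 1, 2 and 3. Vitamin C libraries 1, 2 and 3 had 17634, 17178 and 19218, so all perchlorate plus vitamin C values lay below them. Library 1 of perchlorate plus vitamin C stood apart from libraries 2 and 3 of its group. On the first principal component of the 6 libraries, which held 67.5% of the variance, it lay at -0.50 and its partners at -56.2 and -50.4, whereas the vitamin C libraries lay between 33.7 and 38.1. For named genes that did not pass with all libraries but passed without it, both outcomes are given. Most other values include it. The lists named below are lists of marker or pathway genes, and each list has its count of members that passed the test beside it. A level is a normalized read count, a difference is a log2 fold change on the log2(value + 1) scale ± its standard error (3 libraries a group), and a gene passed at a limma adjusted p under 0.05 over the 17778 genes tested.

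In vitamin C fish a small set of genes passed as higher with perchlorate, and most of those with a symbol encode blood plasma proteins. Without overlap 14.9% of the genes tested were higher and 16.5% lower, so the number that passed does not give the breadth of the difference. These shares do not measure it either, since some genes fail to overlap by sampling alone and genes move together. With limma, 48 genes were higher (0.27% of those tested) and 0 were lower (0%). At an unadjusted limma p under 0.05, 962 genes were higher and 772 lower, together 9.75% of those tested. Such a threshold admits some genes without any difference. All 48 genes had 3 values above the highest vitamin C value, all were at least 2-fold higher, and 37 were at least 8-fold higher. Their log2 fold changes had a median of 4.26 and a range of 1.55 to 8.23. Passing the test largely fixes such sizes and the lack of overlap, so they are not added support. Some met the mean level for testing only through the perchlorate plus vitamin C group. vmo1a had a mean of 111.9 there, against 1.61, 7.36, 5.71 and 4.09 in the other groups. Over all genes tested the median difference was -0.03 and the median absolute difference was 0.25. Of the 48 genes, 17 have a symbol in the deposited table and 31 have only an identifier. The count depended on single libraries of the vitamin C groups: it was 20 without perchlorate plus vitamin C library 2, 25, 30 and 31 without vitamin C libraries 1, 2 and 3, 32 without perchlorate plus vitamin C library 3, and 88 without library 1 of that group. Scaling the libraries on genes with high levels moved the median difference of all genes to 0.09, so the medians of lists below are to be read beside the median of all genes.

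Both fibrinogen genes that were called encode chains of the protein that forms the blood clot. fgb (fibrinogen beta chain) had 133, 594 and 169.9 normalized read counts in perchlorate plus vitamin C libraries 1, 2 and 3, against 5.90, 6.44 and 5.90 in the vitamin C libraries. The groups did not overlap, and library 2 was far above libraries 1 and 3. The log2 fold change was 5.08 ± 0.58 (limma adjusted p = 0.000291). fga (fibrinogen alpha chain) had 156, 613 and 184 counts with perchlorate, against 15.3, 16.1 and 10.6 with vitamin C alone. It rose by the same pattern over libraries, with a difference of 4.14 ± 0.57 on the log2 scale (limma adjusted p = 0.00219). f2, the prothrombin gene, stood at 138, 517 and 202 counts with perchlorate, against 89.6, 67.6 and 62.5 with vitamin C alone. Its groups did not overlap either, but it did not pass with all libraries (log2 fold change 1.74 ± 0.40, limma adjusted p = 0.122), and it passed without perchlorate plus vitamin C library 1 (2.14 ± 0.40, limma adjusted p = 0.0208).

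The called genes c3-1, c3-2, cfbl, c9 and c7b are complement genes, parts of the plasma cascade that marks and lyses microbes. Complement component C3 is the hub of that cascade, and c3-1 had 840.0, 3647 and 996 counts in perchlorate plus vitamin C libraries, against 33.6, 32.9 and 41.3 in vitamin C libraries. c3-1 rose without overlap, by 5.30 ± 0.47 on the log2 scale (limma adjusted p = 3.32e-05). Another C3 entry, c3-2, had 151, 604 and 188 counts with perchlorate, against 31.3, 47.0 and 33.0 with vitamin C alone, a difference of 2.79 ± 0.47 on the log2 scale (limma adjusted p = 0.013). The C3 entries may share reads, so their separate values are uncertain. cfbl, a complement factor B-like gene of the alternative pathway, had 148, 547 and 174 counts with perchlorate, against 9.43, 9.02 and 11.8 with vitamin C alone, a difference of 4.46 ± 0.59 on the log2 scale (limma adjusted p = 0.00136). c9 encodes the pore-forming component of the lytic complex and had 98.2, 395 and 114 counts with perchlorate, against 5.31, 7.73 and 14.2 with vitamin C alone. It rose by 4.14 ± 0.67 on the log2 scale (limma adjusted p = 0.0101), again with library 2 highest. c7b, a gene for component C7 of the same complex, had 153, 546 and 430.4 counts with perchlorate, against 63.7, 65.1 and 61.3 with vitamin C alone. Here library 3 was also well above library 1, and the log2 fold change was 2.36 ± 0.46 (limma adjusted p = 0.0351). c7b did not pass when any library of these groups but perchlorate plus vitamin C library 1 was left out (limma adjusted p up to 0.363). Its call was also lost without each library of perchlorate alone and without control library 1, which enter only the shared spread. The calls of c3-2 and c9 were also lost without perchlorate plus vitamin C library 2 (limma adjusted p = 0.0945 and 0.114), without vitamin C library 1, and without vitamin C library 3 for c3-2 and library 2 for c9, whereas c3-1 and cfbl passed each time.

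Plasma apolipoproteins carry lipids in lipoprotein particles. apoa1b, a gene for the main protein of high-density lipoprotein, had 806, 3485 and 1189 counts in perchlorate plus vitamin C libraries, against 70.8, 98.6 and 122 in vitamin C libraries. No value overlapped, and the log2 fold change was 3.97 ± 0.44 (limma adjusted p = 0.000251). apoa2, another high-density lipoprotein gene, had 381, 1678 and 479 counts with perchlorate, against 15.3, 10.95 and 27.14 with vitamin C alone, a difference of 5.26 ± 0.52 on the log2 scale (limma adjusted p = 8.37e-05). apoeb, an apolipoprotein E gene, had 1788, 4432 and 3195 counts with perchlorate, against 957, 1055 and 996 with vitamin C alone. Its rise was the smallest of the 48, at 1.55 ± 0.26 (limma adjusted p = 0.0111). cp, the gene of ceruloplasmin, which carries copper and oxidises iron in plasma, had 165, 675 and 228 counts with perchlorate, against 19.5, 19.97 and 15.3 with vitamin C alone. It rose by 3.95 ± 0.75 (limma adjusted p = 0.0305), with library 2 again highest. The calls of apoeb and cp were lost when any library of these groups but perchlorate plus vitamin C library 1 was left out (limma adjusted p up to 0.0945 for apoeb and 0.313 for cp), and those of apoa1b and apoa2 passed each time. That of cp was also lost without perchlorate library 3 or control library 2.

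A list of 29 liver marker genes holds 7 of these calls: apoa1b, apoa2, apoeb, c9, cp, fga and fgb. Of 24 members tested 7 rose, 0 fell and 17 did not pass, and 18 had higher values without overlap, where 14.9% of all genes tested did. The median log2 fold change of the 24 was 1.71, beside -0.03 for all genes tested. Members that missed the threshold included hpxa (hemopexin, which binds free heme) with 36.8, 121 and 57.2 counts with perchlorate, against 13.0, 7.09 and 11.8 with vitamin C alone, a difference of 2.51 ± 0.51 on the log2 scale (limma adjusted p = 0.0537). The transferrin gene tfa, whose protein carries iron, had 1042, 2868 and 1451 counts with perchlorate, against 416, 533 and 648 with vitamin C alone, a difference of 1.64 ± 0.38 on the log2 scale (limma adjusted p = 0.138). hpxa and tfa passed without perchlorate plus vitamin C library 1, where 11 members of the list were higher. Without library 2 of that group 4 members were higher, and without vitamin C library 1 also 4.

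Summed over all 29 markers, of which all had reads in these libraries, the liver genes took 0.0662, 0.205 and 0.0972% of the values in perchlorate plus vitamin C libraries 1, 2 and 3, against 0.0243, 0.0278 and 0.0292% in the vitamin C libraries. All 3 perchlorate plus vitamin C libraries were also above the range of perchlorate alone, 0.0413 to 0.0601%, and of control, 0.0319 to 0.0501%. The called genes moved together over the libraries. Library 2 was highest of its group in 46 of the 48, and its ratio to library 1 had a median of 4.004 (quartiles 3.67 and 4.51), beside a median of 1.01 over all genes tested. For 38 of the 48 genes this ratio lay between 3.5 and 5.5. Library 3 was 1.30 times library 1 by the median (quartiles 1.23 and 1.48). In whole-tissue RNA fewer cells of a type and less RNA per cell cannot be told apart, and the part of liver tissue in the sampled material in these rises was not tested.

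**Figure D1:**
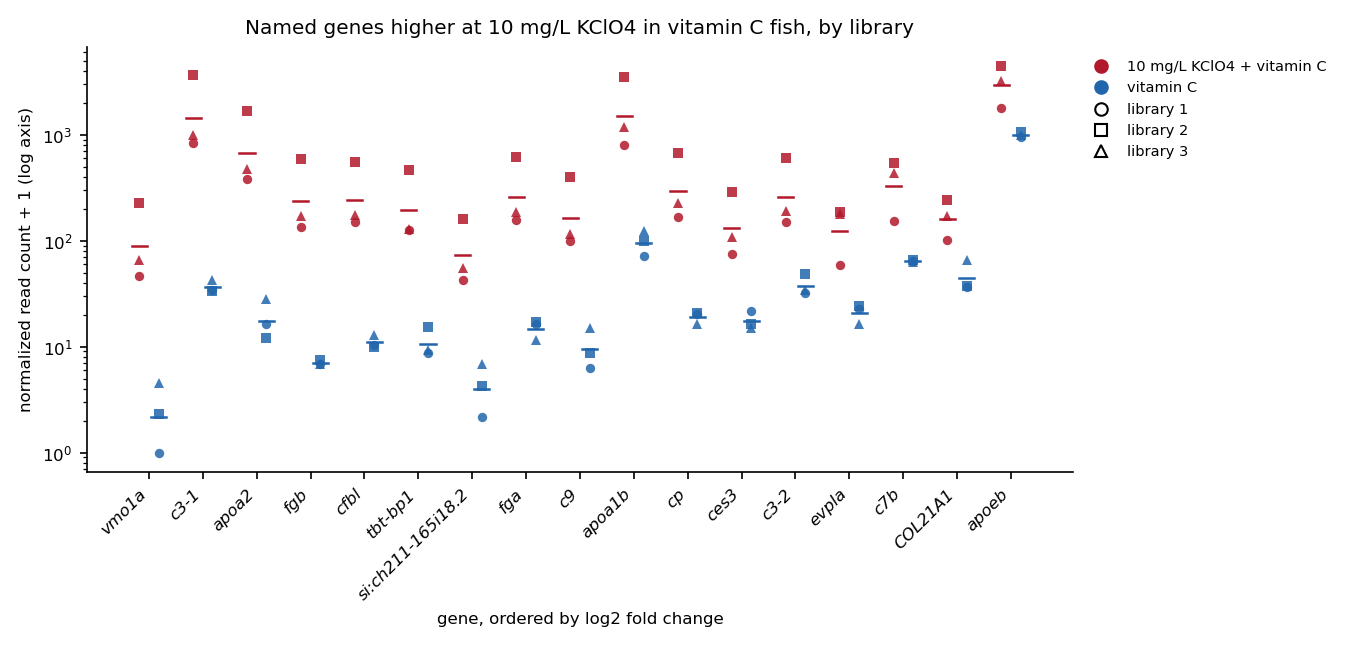
Normalized read count plus 1 (log axis) of the 17 genes with a symbol that were higher in perchlorate plus vitamin C fish, by library; red symbols are perchlorate plus vitamin C, blue symbols vitamin C alone, marker shapes the library number and lines the mean on the log scale. The groups do not overlap for any of the 17 genes, and library 2 (square) is the highest red symbol in each.

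**Figure D2:**
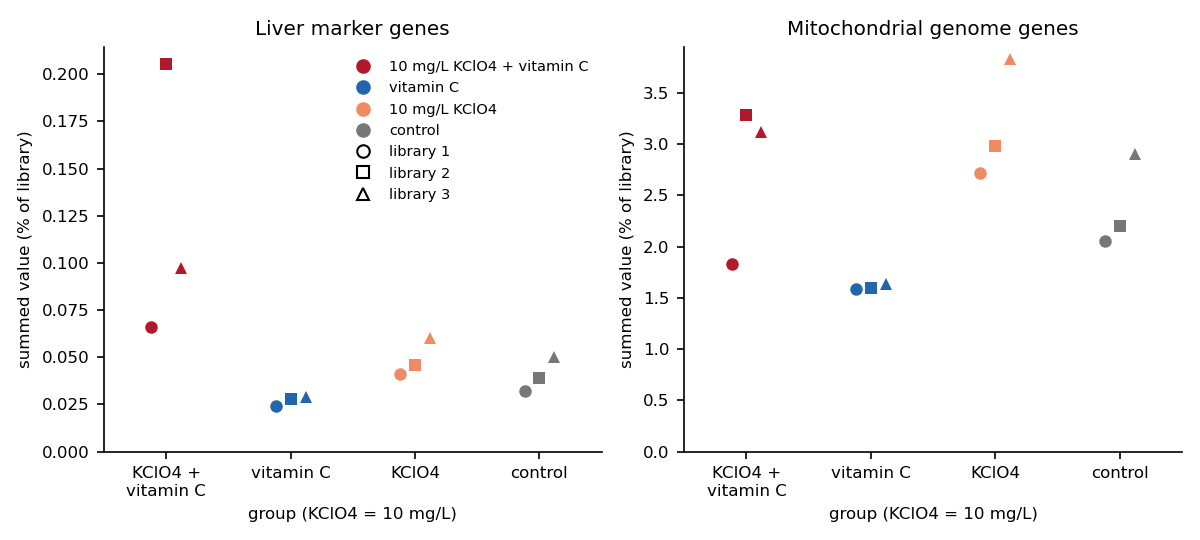
Summed value of the liver marker genes (left) and of the genes of the mitochondrial genome (right), each as a percentage of the library, by group and library. The liver share reaches 0.0662 to 0.205% with perchlorate plus vitamin C, above every library of the other groups shown; the mitochondrial share of library 1 of that group, 1.83%, lies nearer to vitamin C alone than to its partners.

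The remaining called genes with a symbol have other roles. evpla, a gene for envoplakin of the cell envelope and of cell junctions in epithelia, had 57.4, 187 and 176 counts in perchlorate plus vitamin C libraries, against 21.8, 23.2 and 15.3 in vitamin C libraries. It rose by 2.58 ± 0.39 (limma adjusted p = 0.00455) and had about the same level in libraries 2 and 3. It was the 1 called member of 35 tested markers of skin and surface epithelium, with 7 members higher and 4 lower without overlap (14.9 and 16.5% of all genes tested). COL21A1, a gene for a collagen associated with fibrils, had 99.8, 244 and 171 counts with perchlorate, against 35.4, 36.7 and 64.9 with vitamin C alone. Its log2 fold change was 1.85 ± 0.34 (limma adjusted p = 0.0252), and it was the 1 called gene of 58 tested collagen and matrix genes, whose median was 0.17. ces3, a carboxylesterase gene, had 73.5, 287 and 109 counts with perchlorate, against 20.6, 15.5 and 14.2 with vitamin C alone, a difference of 2.92 ± 0.56 on the log2 scale (limma adjusted p = 0.0351). Without perchlorate plus vitamin C library 2 none of the 3 passed (limma adjusted p = 0.0554 for evpla, 0.288 for COL21A1 and 0.384 for ces3). COL21A1 also lost its call without library 3 of that group or vitamin C library 1 or 2, and ces3 without any library of these groups but perchlorate plus vitamin C library 1. The call of ces3 was lost as well without perchlorate library 1 or 2 or control library 1 or 2.

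The other 3 named genes had low levels without perchlorate. vmo1a, a gene related to a protein of the vitelline membrane of chicken eggs, had 45.3, 226 and 64.5 counts in perchlorate plus vitamin C libraries, against 0, 1.29 and 3.54 in vitamin C libraries. It rose by 5.34 ± 0.74 (limma adjusted p = 0.00216). tbt-bp1, a gene for a tributyltin-binding protein of fish plasma, had 124, 467 and 127 counts with perchlorate, against 7.67, 14.2 and 8.26 with vitamin C alone. It rose by 4.197 ± 0.66 (limma adjusted p = 0.00748). si:ch211-165i18.2, for which no role is given here, had 42.02, 160.1 and 54.7 counts with perchlorate, against 1.18, 3.22 and 5.90 with vitamin C alone, a difference of 4.19 ± 0.78 on the log2 scale (limma adjusted p = 0.0265). All 3 genes showed the same order over libraries as the plasma protein genes, with library 2 highest. vmo1a passed whichever library was left out, tbt-bp1 did not pass without perchlorate plus vitamin C library 2 or vitamin C library 1 (limma adjusted p = 0.0827 and 0.0619), and si:ch211-165i18.2 passed only when library 1 of perchlorate plus vitamin C was the one of these groups left out. The call of si:ch211-165i18.2 was also lost without perchlorate library 3.

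The largest differences were in genes that have only an identifier. ENSORLG00000029989 had 463, 2143 and 579.8 counts in perchlorate plus vitamin C libraries, against 0, 1.29 and 8.26 in vitamin C libraries, a difference of 8.23 ± 0.75 on the log2 scale (limma adjusted p = 3.32e-05). ENSORLG00000028583 had 1246, 5707 and 1413 counts with perchlorate, against 5.90, 4.51 and 13.0 with vitamin C alone, a difference of 8.06 ± 0.65 on the log2 scale (limma adjusted p = 1.33e-05). ENSORLG00000024409 had nearly the same counts, 1252, 5726 and 1423 with perchlorate, against 7.67, 5.80 and 13.0 with vitamin C alone. ENSORLG00000028583 and ENSORLG00000024409 may share reads, so their separate values are uncertain. All of these genes were nearly absent with vitamin C alone. Over the 48 genes, 18 had a mean under 5 in the vitamin C libraries and 8 had a vitamin C library at 0, so their fold changes depend on the pseudocount of 1.

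No gene was called lower by limma, although 2937 genes (16.5%) had 3 perchlorate plus vitamin C values below the lowest vitamin C value, and 2643 (14.9%) had 3 values above the highest. Library 1 lay nearest to the vitamin C group in most of them: it was the highest of its group in 80.3% of the lower ones and the lowest of its group in 83.4% of the higher ones. Without library 1, 38 genes were lower and 88 higher, the 48 genes of the full comparison among them. stxbp1b, a gene for a syntaxin-binding protein of vesicle release, had 227, 58.2 and 35.1 counts in perchlorate plus vitamin C libraries, against 453, 329 and 290.2 in vitamin C libraries. Its log2 fold change was -2.16 ± 0.49 with all libraries (limma adjusted p = 0.12) and -2.93 without library 1, where it passed. edgeR called 0 genes lower on the recovered reads and DESeq2 called 10.

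Genes of meiosis had slightly lower values in perchlorate plus vitamin C fish, and none passed. All 18 meiosis genes tested had a negative log2 fold change, between -0.84 and -0.03 with a median of -0.28, and 9 were lower without overlap, where 16.5% of all genes tested were. Without library 1 of perchlorate plus vitamin C the median was -0.36. mnd1, whose protein helps homologous chromosomes pair and exchange strands, had 1275, 676 and 689 counts in perchlorate plus vitamin C libraries, against 1307, 1518 and 1407 in vitamin C libraries. Library 1 lay just under the vitamin C range and libraries 2 and 3 near the same low level. The log2 fold change was -0.74 ± 0.22 (limma adjusted p = 0.326) and -1.04 without library 1 (limma adjusted p = 0.0122). trip13, which remodels chromosome axis proteins, had 1353, 727 and 709.7 counts with perchlorate, against 1464, 1591 and 1601 with vitamin C alone, a difference of -0.80 ± 0.21 on the log2 scale (limma adjusted p = 0.252) and -1.11 without library 1 (limma adjusted p = 0.00714).

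Structural genes of meiotic chromosomes showed the same split within the group. sycp1, of the synaptonemal complex that joins paired chromosomes, had 5276, 2249.6 and 2317 counts with perchlorate, against 4854, 5442 and 5952 with vitamin C alone, and hormad1, of the chromosome axis, had 5599, 3051 and 3165 counts with perchlorate, against 5412, 6535 and 7258 with vitamin C alone. For both genes library 1 lay inside the vitamin C range and libraries 2 and 3 far below it. Their log2 fold changes were -0.84 ± 0.36 and -0.75 ± 0.33 (limma adjusted p = 0.481 and 0.488). dmc1, the meiotic recombinase gene, stood at 3011, 2990.0 and 3343 counts with perchlorate, against 3317, 3083 and 3142 with vitamin C alone, with overlapping groups and a difference of -0.03 ± 0.26 on the log2 scale (limma adjusted p = 0.978).

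Earlier and later germ cell genes also gave no call. Of 23 spermatogonia genes 0 passed, with 7 higher and 3 lower without overlap and a median of 0.07. Their log2 fold changes ran from -0.59 to 1.59, with 13 above 0 and 10 below 0. Over all genes tested 14.9% were higher and 16.5% lower without overlap, and the list counts in this paragraph are to be read beside these shares. dazl, a germ cell RNA-binding protein gene, had 3193, 1618 and 1739 counts in perchlorate plus vitamin C libraries, against 2523, 3396 and 3544 in vitamin C libraries (log2 fold change -0.59 ± 0.26, limma adjusted p = 0.504). ddx4, with its counts given above, was lower without overlap and did not pass (log2 fold change -0.48 ± 0.18, limma adjusted p = 0.449). Of 35 sperm genes 0 passed, 1 was higher and 11 were lower without overlap, and the median was -0.13. tekt2, of the sperm tail's tektin filaments, had 1174, 796 and 807 counts with perchlorate, against 1334, 1257 and 1372 with vitamin C alone. The groups did not overlap, and the log2 fold change was -0.54 ± 0.26 (limma adjusted p = 0.519). Of 25 genes of the germline small RNA pathway 0 passed, with 12 lower and 4 higher without overlap and a median of -0.28. The Piwi gene piwil2, which guards the germline against transposons, had 1593, 1171 and 1203 counts with perchlorate, against 1947, 1906 and 1851 with vitamin C alone, without overlap (log2 fold change -0.54 ± 0.17, limma adjusted p = 0.406).

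Of 25 Sertoli cell genes 0 were called, and 10 were higher and 1 was lower without overlap, beside 14.9% higher and 16.5% lower of all genes tested. The median log2 fold change was 0.39, and 1 gene of the list was called higher without the low dose libraries. nr0b1, a nuclear receptor gene active in gonadal somatic cells, had 141, 250.0 and 309.5 counts in perchlorate plus vitamin C libraries, against 77.2, 93.4 and 117 in vitamin C libraries. Its log2 fold change was 1.22 ± 0.27 (limma adjusted p = 0.111) and 1.55 without library 1 (limma adjusted p = 0.0106). dmrt1, a transcription factor gene of the male gonad, had 1126, 1909 and 1815 counts with perchlorate, against 914, 1059.7 and 1049 with vitamin C alone, and fshr, the receptor gene for follicle-stimulating hormone, had 600.0, 685 and 618 counts with perchlorate, against 437, 478 and 451 with vitamin C alone. Neither overlapped, and neither passed (log2 fold changes 0.65 ± 0.38 and 0.48 ± 0.24, limma adjusted p = 0.581 and 0.52). The anti-Müllerian hormone gene amh (ENSORLG00000015951), a product of Sertoli cells, had 7908, 5005 and 5516 counts with perchlorate, against 11367, 9284 and 8562 with vitamin C alone. It was lower without overlap but did not pass (log2 fold change -0.68 ± 0.27, limma adjusted p = 0.465). Another entry with the symbol amh (ENSORLG00000005044) had 369, 386 and 432 counts with perchlorate, against 306, 348 and 407 with vitamin C alone. Its groups overlapped (log2 fold change 0.17 ± 0.21, limma adjusted p = 0.812).

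Of 20 Leydig cell genes 0 passed, 5 were higher and 3 lower without overlap (14.9 and 16.5% of all genes tested), and the median was 0.02. hsd11b2, whose enzyme takes part in glucocorticoid inactivation and in making the fish androgen 11-ketotestosterone, had 182, 86.3 and 85.7 counts in perchlorate plus vitamin C libraries, against 207, 216 and 236 in vitamin C libraries. Libraries 2 and 3 were far below the vitamin C range and library 1 just below it. The log2 fold change was -0.98 ± 0.27 (limma adjusted p = 0.269) and -1.34 without library 1 (limma adjusted p = 0.0122). star, which brings cholesterol into mitochondria for steroid synthesis, had 434, 253 and 222 counts with perchlorate, against 376, 477 and 523 with vitamin C alone, with overlapping groups (log2 fold change -0.64 ± 0.27, limma adjusted p = 0.475). The steroid enzyme gene hsd3b1 went the other way, at 352, 419 and 474 counts with perchlorate, against 291, 346 and 350 with vitamin C alone. It was higher without overlap and did not pass (log2 fold change 0.33 ± 0.29, limma adjusted p = 0.708). Of the 20 Leydig cell genes 11 had a positive and 9 a negative log2 fold change. Of 37 tested genes for gonadal hormones and their receptors 0 passed, with 10 higher and 4 lower without overlap. The androgen receptor gene ar-alpha, outside this list, did not pass with all libraries. It was called higher without library 1 (log2 fold change 1.31 ± 0.21, limma adjusted p = 0.00865). Another androgen receptor entry, ar, had 12.5, 16.2 and 19.6 counts with perchlorate, against 10.6, 10.95 and 13.0 with vitamin C alone. Its groups overlapped and it did not pass (log2 fold change 0.43 ± 0.46, limma adjusted p = 0.768).

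**Figure D3:**
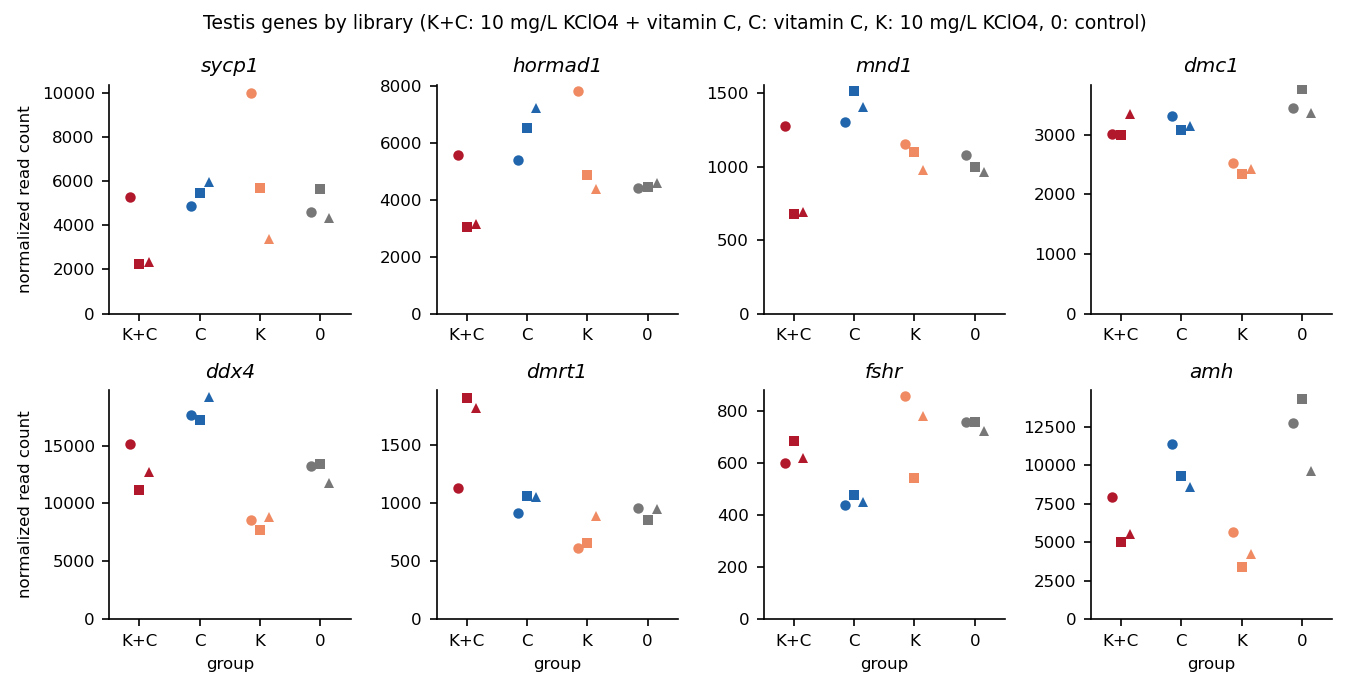
Normalized read counts of 8 testis genes by library in perchlorate plus vitamin C (K+C), vitamin C alone (C), perchlorate alone (K) and control (0); marker shapes give the library number. In the K+C group library 1 (circle) of sycp1, hormad1 and mnd1 lies at or near the level of vitamin C alone and libraries 2 and 3 lie below it, whereas dmc1 stays level.

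Genes of dividing cells were lower in many values and called in none. Of 89 cell cycle genes tested 80 had a negative log2 fold change and 44 were lower without overlap, with 3 higher and a median of -0.26, where 16.5% of all genes tested were lower and 14.9% higher without overlap. racgap1, which organises the division furrow, had 1108, 658 and 615 counts in perchlorate plus vitamin C libraries, against 1553, 1235 and 1282 in vitamin C libraries. The groups did not overlap, and the log2 fold change was -0.82 ± 0.29 (limma adjusted p = 0.444). The proliferation marker mki67 overlapped, at 2470.3, 2443 and 2394 counts with perchlorate, against 2889, 2621 and 2298 with vitamin C alone (log2 fold change -0.09 ± 0.23, limma adjusted p = 0.912). DNA replication genes had 19 of 52 lower and 0 higher without overlap, DNA repair genes 28 of 89 lower and 2 higher, and splicing genes 39 of 113 lower and 6 higher, with medians of -0.21, -0.16 and -0.15. The core splicing protein gene snrpg had 1870.3, 1063 and 1076 counts with perchlorate, against 1966, 2349 and 2591 with vitamin C alone (log2 fold change -0.83 ± 0.22, limma adjusted p = 0.231). It too passed without library 1, as 1 of 3 splicing genes that were lower there.

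Transcripts of the mitochondrial genome, which encode core subunits of the respiratory chain, were higher in libraries 2 and 3 of perchlorate plus vitamin C, though not called. All 13 had a positive log2 fold change, between 0.29 and 0.78 with a median of 0.59, 6 were higher without overlap (14.9% of all genes tested), and 0 passed. Together they took 1.83, 3.29 and 3.12% of the values in perchlorate plus vitamin C libraries 1, 2 and 3, against 1.59, 1.60 and 1.63% in the vitamin C libraries. Library 1 was only slightly above the vitamin C range, and without it the median log2 fold change of the 13 genes was 0.85. COX1, a subunit of the last respiratory complex, had 70857, 124846 and 119167 counts with perchlorate, against 60459, 61411 and 63231 with vitamin C alone (log2 fold change 0.72 ± 0.35, limma adjusted p = 0.517). Over all genes tested 16.5% were lower without overlap, and the counts of lower genes that follow are to be read beside this share. Of 60 nuclear genes of the same chain 0 passed, 0 were higher and 8 (13.3%) lower without overlap, with a median of -0.25. Mitochondrial ribosome genes had 18 of 66 lower without overlap and a median of -0.26, and cytosolic ribosome genes had none of 67 without overlap and a median of -0.02 (0.11 when scaled on genes with high levels).

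Early response genes, which many cells switch on within minutes of growth factor, stress or handling signals, gave no call. Of 45 tested 0 passed, 18 were higher and 4 lower without overlap, beside 14.9% higher and 16.5% lower of all genes tested, and the median was 0.44. In the fit without the low dose libraries 4 of the 45 were called higher. fosl2, a subunit of the AP-1 transcription factor, had 107, 170.3 and 183 counts in perchlorate plus vitamin C libraries, against 54.8, 67.6 and 68.4 in vitamin C libraries. Its log2 fold change was 1.23 ± 0.26 (limma adjusted p = 0.0785) and 1.46 without library 1 (limma adjusted p = 0.0221). egr1, another early transcription factor gene, had 164, 177 and 203 counts with perchlorate, against 80.8, 101 and 111 with vitamin C alone, without overlap and at a nearly even level in the 3 libraries (log2 fold change 0.89 ± 0.22, limma adjusted p = 0.191). hbegfa, a growth factor gene, had 134, 232 and 266 counts with perchlorate, against 92.0, 97.3 and 73.1 with vitamin C alone (log2 fold change 1.21 ± 0.29, limma adjusted p = 0.154) and passed without library 1 (limma adjusted p = 0.0229).

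The pathway that perchlorate targets showed no call in the testis. Of 22 thyroid and iodide genes tested 0 passed, and the median log2 fold change was 0.13. Without overlap 4 were higher and 2 lower, near the shares of all genes tested (14.9% higher and 16.5% lower). slc5a5, the sodium-iodide symporter gene, had 276, 328 and 336 counts in perchlorate plus vitamin C libraries, against 229, 250.0 and 306 in vitamin C libraries. The groups overlapped, with a difference of 0.27 ± 0.34 on the log2 scale (limma adjusted p = 0.814). thrb, a thyroid hormone receptor gene, had 191, 228 and 241 counts with perchlorate, against 146, 150.1 and 183 with vitamin C alone, just without overlap (log2 fold change 0.46 ± 0.23, limma adjusted p = 0.522). The receptor gene thraa overlapped, at 37.2, 38.4 and 36.7 counts with perchlorate, against 45.4, 30.3 and 29.5 with vitamin C alone (log2 fold change 0.12 ± 0.47, limma adjusted p = 0.944). klf9, a transcription factor gene that thyroid hormone induces in many tissues, had 216, 137 and 138 counts with perchlorate, against 292, 237 and 281 with vitamin C alone. It was lower without overlap and did not pass (log2 fold change -0.74 ± 0.25, limma adjusted p = 0.427). dio1, whose enzyme removes iodine from thyroid hormone, stood at 36.0, 44.4 and 29.4 counts with perchlorate, against 33.0, 36.1 and 28.3 with vitamin C alone, with overlapping groups.

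The lists of antioxidant defence and of vitamin C use also gave no call. Of 67 antioxidant and glutathione genes 8 were higher and 7 lower without overlap (14.9 and 16.5% of all genes tested), with a median of -0.07 (0.05 when scaled on genes with high levels), and of 45 genes for vitamin C transport and ascorbate-dependent enzymes 5 were higher and 6 lower, with a median of 0.01. gclc, the rate-limiting enzyme gene of glutathione synthesis, had 692, 517 and 521 counts in perchlorate plus vitamin C libraries, against 894, 795 and 793 in vitamin C libraries. It was lower without overlap (log2 fold change -0.53 ± 0.16, limma adjusted p = 0.366). GPX4, a glutathione peroxidase gene outside the antioxidant list, did not pass with all libraries. It was called lower without perchlorate plus vitamin C library 1 (log2 fold change -1.27 ± 0.25, limma adjusted p = 0.032). keap1a, whose protein holds back the antioxidant regulator Nrf2, had 89.3, 145 and 114 counts with perchlorate, against 54.8, 87.0 and 59.0 with vitamin C alone, higher without overlap (log2 fold change 0.79 ± 0.25, limma adjusted p = 0.387). cat, the catalase gene, stood at 486, 618 and 553 counts with perchlorate, against 468, 472 and 489.6 with vitamin C alone, and sod1, the cytosolic superoxide dismutase gene, at 7198, 5365 and 5144 counts with perchlorate, against 6895, 7617 and 8917 with vitamin C alone. Both overlapped, with log2 fold changes of 0.21 ± 0.15 and -0.41 ± 0.21 (limma adjusted p = 0.65 and 0.522). SLC23A2, a vitamin C transporter gene, overlapped as well, at 50.9, 44.97 and 58.0 counts with perchlorate, against 62.5, 47.7 and 60.2 with vitamin C alone. Of 67 genes for DNA and histone methylation 0 passed, 5 were higher and 9 lower without overlap, with a median of -0.08 (0.04 when scaled on genes with high levels).

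**Figure D4:**
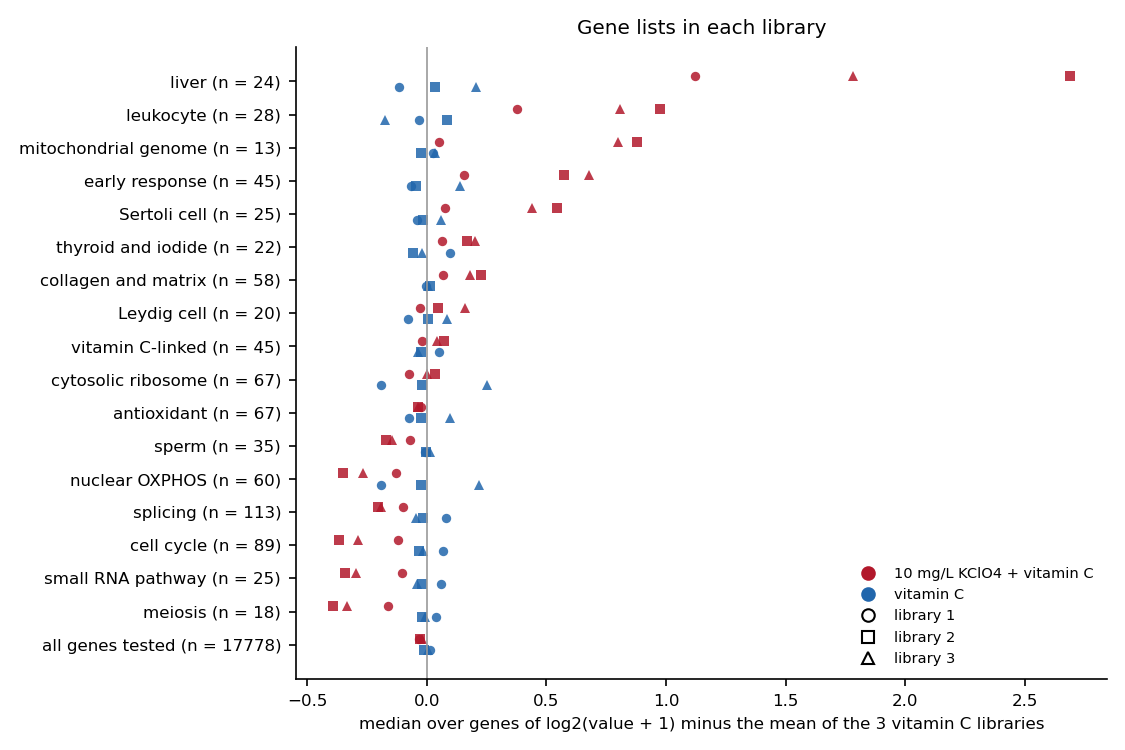
Median over the genes of each list of the log2(value + 1) difference from the mean of the 3 vitamin C libraries, by library; red symbols are perchlorate plus vitamin C, blue symbols vitamin C alone, and n is the number of genes tested. The liver list lies at 1.12, 2.69 and 1.78 in perchlorate plus vitamin C libraries 1, 2 and 3 and the meiosis list at -0.16, -0.39 and -0.33; in most lists library 1 (circle) is the red symbol nearest to 0.

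Markers of other cell types were measured as well, since a testis sample can hold blood, vessels and neighbouring tissue. Without overlap 14.9% of all genes tested were higher and 16.5% lower. Of 28 leukocyte genes 0 passed, 12 were higher and 1 lower without overlap, with a median of 0.62, and together they took 0.0242 to 0.0351% of the values in perchlorate plus vitamin C libraries, against 0.0179 to 0.0213% in vitamin C libraries. lyz, a lysozyme gene of myeloid cells, had 36.4, 143 and 47.4 counts with perchlorate, against 2.95, 7.09 and 4.72 with vitamin C alone, in the library order of the plasma protein genes (log2 fold change 3.49 ± 0.84, limma adjusted p = 0.163). All 8 exocrine pancreas genes tested had positive log2 fold changes, with 3 higher without overlap, a median of 0.98 and a summed share of 0.00333 to 0.00651% with perchlorate, against 0.00185 to 0.00287% with vitamin C alone. Endothelial genes had 8 of 20 higher and 1 lower without overlap, adipose genes 4 of 9 higher and 1 lower, neuronal genes 7 of 23 higher and 0 lower, and muscle genes 5 of 16 higher and 0 lower. Erythrocyte genes had 0 of 13 higher and 5 lower, oocyte genes 0 of 14 higher and 4 lower, and islet genes 0 of 9 higher and 1 lower. None of these genes passed. In the fit without the low dose libraries 3 leukocyte genes and 1 adipose gene were called higher and 1 islet gene lower, and without perchlorate plus vitamin C library 1 the list of adipose genes had 1 called higher. The part of these cell types in the differences above was not tested.

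Whether the high dose acted differently on the vitamin C background was tested by the difference between the log2 fold changes with vitamin C (perchlorate plus vitamin C over vitamin C alone) and without it (perchlorate alone over control). These comparisons share no library. With vitamin C limma called the 48 genes described, and without it 3248 genes (18.3%) were higher and 3638 (20.5%) lower, a total of 6886. The median absolute difference over all genes was 0.25 with vitamin C and 0.59 without it. Of the 6886 genes called without vitamin C, 78.0% had the same sign with it, beside 55.8% of the genes not called. The higher ones had a median of 0.47 with vitamin C and 1.69 without it, and the lower ones -0.14 with vitamin C and -0.96 without it. That these medians are larger without vitamin C is largely fixed by the choice of the genes by their calls there. Across the 17778 genes, which are not independent replicates, the effects had a Pearson r of 0.474 and a Spearman rho of 0.418.

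The difference itself passed for 996 genes above 0 (5.6%) and 440 below 0 (2.47%). Scaling the libraries on genes with high levels gave 594 above 0 and 669 below 0, so the excess above 0 turned round, and the fit without the low dose gave 2838 and 2217. Most of the 996 and 440 were genes called without vitamin C: 960 that were lower and had a difference above 0, and 422 that were higher and had a difference below 0. For 5498 of the 6886 genes (79.8%) the difference did not pass, so a smaller effect with vitamin C was not shown for them. These counts rested on single libraries: when 1 of the 12 was left out they ranged from 92 to 1263 above 0 and from 35 to 577 below 0. Without perchlorate plus vitamin C library 1 there were 660 above 0 and 333 below 0. The count above 0 was lower still without perchlorate plus vitamin C library 3 (194), vitamin C library 2 (192) or 3 (97), or control library 1 (92) or 2 (95), and 233 without perchlorate plus vitamin C library 2 and 318 without perchlorate library 2.

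Of the 48 genes called with vitamin C, 19 were also higher without it (39.6% of the 48 and 0.585% of the 3248), 1 was lower and 28 were not called. The 19 became 9 to 39 when 1 library was left out, 39 without perchlorate plus vitamin C library 1 and 9 without library 2 of that group or control library 1. All 48 had a larger log2 fold change with vitamin C, which their choice by a high fold change there largely fixes, and for 26 of them the difference passed. c3-1 had 66.1, 50.1 and 96.7 counts in perchlorate libraries, against 18.03, 16.2 and 42.2 in control libraries, a difference of 1.52 ± 0.47 on the log2 scale (limma adjusted p = 0.019). With vitamin C its effect was larger by 3.78 ± 0.67 (limma adjusted p = 0.00984 for the difference). apoa1b had 161, 89.3 and 212 counts with perchlorate alone, against 73.2, 79.7 and 89.8 in control libraries, and its effect differed by 3.13 ± 0.62 (limma adjusted p = 0.014). The difference of c3-1 passed whichever of the 12 libraries was left out, and that of apoa1b did in all but 1 case (limma adjusted p = 0.051 without control library 2). For fga and c9 the difference did not pass (2.26 ± 0.81 and 1.45 ± 0.95, limma adjusted p = 0.09 and 0.333). Nor did it pass for cfbl, c3-2 and c7b (limma adjusted p = 0.0652, 0.277 and 0.12). c9 had 23.0, 34.7 and 29.8 counts with perchlorate alone, against 1.06, 7.48 and 4.69 in control libraries.

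Some differences came with unlike levels in the groups without perchlorate. evpla had 103, 55.9 and 99.9 counts with perchlorate alone, against 137, 163 and 106 in control libraries, so its control level was far above the 21.8, 23.2 and 15.3 counts of vitamin C alone. The difference between its effects was 3.26 ± 0.55 (limma adjusted p = 0.00955). apoeb had 1370.3, 1687 and 1598 counts with perchlorate alone, against 1609, 2391 and 2577 in control libraries, which also lay above the 957, 1055 and 996 counts of vitamin C alone (difference 2.03 ± 0.36, limma adjusted p = 0.0102). The gene with calls in opposite directions, ENSORLG00000000623, had 150.3, 379 and 418 counts in perchlorate plus vitamin C libraries, against 66.6, 69.6 and 93.2 in vitamin C libraries. Without vitamin C it had 155, 182 and 254 counts with perchlorate, against 515, 602 and 364 in control libraries. Its call with vitamin C was lost without library 2 or 3 of perchlorate plus vitamin C or vitamin C library 1 or 2 (limma adjusted p up to 0.142). The differences of evpla, apoeb and ENSORLG00000000623 passed whichever library was left out.

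**Figure D5:**
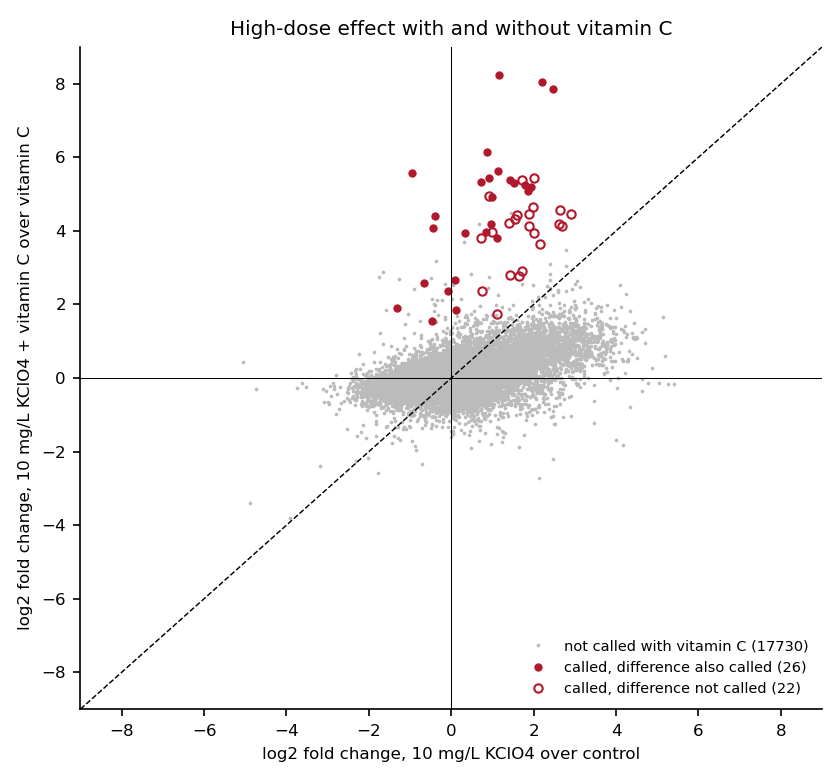
Log2 fold change of 10 mg/L KClO4 with vitamin C (y axis, over vitamin C alone) against that without vitamin C (x axis, over control) for the 17778 genes tested; red points are the 48 genes called with vitamin C, filled for the 26 whose difference between the backgrounds passed, and the dashed line marks equal effects. All red points, chosen for a high value on the y axis, lie above the dashed line, and the grey points spread more widely along the x axis than along the y axis.

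Some genes of epithelia that perchlorate raised strongly without vitamin C were not called with it, and their difference passed. slc12a3, a sodium-chloride cotransporter gene of the kidney tubule, had 33.5, 38.4 and 32.7 counts in perchlorate plus vitamin C libraries, against 39.5, 34.1 and 66.1 in vitamin C libraries. Without vitamin C it had 2606, 1228 and 2550.1 counts with perchlorate, against 58.3, 26.2 and 329.7 in control libraries, and the effects differed by -4.99 ± 0.86 (limma adjusted p = 0.00966). krt18a.2, a keratin gene of simple epithelia, had 9.70, 18.6 and 27.8 counts in perchlorate plus vitamin C libraries, against 7.08, 7.09 and 9.44 in vitamin C libraries. Without vitamin C it had 592, 461 and 871 counts with perchlorate, against 15.9, 13.7 and 91.1 in control libraries. Its effects differed by -3.40 ± 0.79 (limma adjusted p = 0.0227), which did not pass without perchlorate plus vitamin C library 2, vitamin C library 2 or 3 or control library 1 or 2 (limma adjusted p up to 0.0772). The difference of slc12a3 passed whichever library was left out. Of 25 kidney and gut epithelium markers, 0 were called with vitamin C and 14 were higher without it (18.3% of all genes tested), with 6 differences below 0 and 1 above 0. These markers took 0.0261 to 0.0304% of the values in perchlorate plus vitamin C libraries, against 0.0249 to 0.0266% in vitamin C libraries. Without vitamin C they took 0.0839 to 0.11% with perchlorate, against 0.0248 to 0.0449% in control libraries, and the part of such tissue in the difference was not tested.

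Differences between the backgrounds also passed for some genes of the testis, antioxidant and chromatin lists. For dazl, with 4941, 3074 and 2953 counts in perchlorate libraries, against 2115, 2108 and 2308 in control libraries, the log2 fold change with vitamin C was lower than without it, at a difference of -1.29 ± 0.37 (limma adjusted p = 0.0452). keap1a had 60.3, 82.2 and 101 counts with perchlorate alone, against 173, 184 and 174 in control libraries, opposite in sign to the vitamin C background, and its effects differed by 1.93 ± 0.35 (limma adjusted p = 0.0104). Its rise with vitamin C was not called, and its control level lay far above the 54.8, 87.0 and 59.0 counts of vitamin C alone. ezh2, the gene of the histone methyltransferase of Polycomb, had 1024, 878 and 852 counts in perchlorate plus vitamin C libraries, against 1319, 1167 and 971 in vitamin C libraries. Without vitamin C it had 678, 582 and 742 counts with perchlorate, against 1793, 1842 and 1277 in control libraries (difference 0.96 ± 0.27, limma adjusted p = 0.0416). The differences of dazl and ezh2 each failed in 9 of 12 cases with a library left out (limma adjusted p up to 0.131 and 0.13), and that of keap1a passed in all 12. amh (ENSORLG00000015951) was lower on both backgrounds, with 5679, 3372 and 4208 counts in perchlorate libraries, against 12756, 14333 and 9639.7 in control libraries, and the difference did not pass (0.80 ± 0.38, limma adjusted p = 0.184). The other amh entry (ENSORLG00000005044) was lower only without vitamin C (log2 fold change -0.62 ± 0.21, limma adjusted p = 0.0304).

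By lists, the backgrounds can be set side by side. Over all genes tested 0.27% were called with vitamin C, 20.5% were lower and 18.3% higher without it, and 5.6% of differences above 0 and 2.47% below 0 passed. Of 67 DNA and histone methylation genes 0 were called with vitamin C, 32 were lower and 2 higher without it, and 9 differences above 0 passed. Acetylation and remodelling genes had 0 of 71 called with vitamin C, 28 lower and 2 higher without it, and 9 differences above 0. Of 67 cytosolic ribosome genes 0 were called with vitamin C, 29 were higher without it, and 9 differences below 0 passed. Of 113 splicing genes 0 were called with vitamin C, 50 were lower and 3 higher without it, and 13 differences above 0 and 1 below 0 passed. Of 18 meiosis genes 0 were called with vitamin C and 7 were lower without it, at medians of -0.28 with vitamin C and -0.58 without it, and no difference passed. Of 45 early response genes 0 were called with vitamin C and 18 were higher and 4 lower without it, at medians of 0.44 with vitamin C and 0.54 without it, and no difference passed there either. egr1 had 282, 272 and 196 counts with perchlorate alone, against 119, 98.4 and 102 in control libraries (log2 fold change 1.21 ± 0.22, limma adjusted p = 0.000773), and its effects on both backgrounds differed by -0.32 ± 0.31 (limma adjusted p = 0.536).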

How the data were processed

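RNA of medaka testis was measured in 15 libraries, 3 in each of 5 groups taken from the labels. A ZR-Duet kit served for RNA extraction and a NEBNext Ultra II kit for the libraries, per the labels' protocols. Reads were processed by the authors with the tools fastp (0.23.2), STAR (2.7.7a) and DESeq2 (1.34.0), per the submitters' processing notes. Genome build, counting and strand setting were all not given in the sources used here. This makes near-identical copies and overlapping or antisense genes uncertain, and no coordinates are printed. What the authors deposited is a signal for each of 23028 genes in each library, namely a read count divided by a library factor, and 13541 of the genes have a symbol. Every value (100% of 345420) came back to a whole read within 0.001, which gave the depths.

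Genes were tested with limma 3.58.1 in R 4.3.3, on log2(value + 1) values and with a trend of variance over mean, in 1 model of all 15 libraries, restricted to 17778 genes whose mean was 10 or more. The call threshold was 0.05 on the p adjusted after Benjamini and Hochberg over these genes. Fold changes understate the change of low genes, and each gene has a single spread shared by the groups. All tests were 2-sided, and the scripts were tested on simulated data. Named genes were the 10 largest rises and falls among called genes with a symbol, a mean of 50 or more over the 6 libraries and no overlap, up to 4 called members of each list by adjusted p, and a fixed panel; the other genes named were chosen after their values were seen. The comparison and the lists were chosen with earlier results of these data known. Alternatives were edgeR 4.0.16 and DESeq2 1.42.0 on the recovered reads, other pseudocounts, filters, scalings and library sets, a replicate block, and leaving out 1 library at a time.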

Additional observations from a re-analysis of the deposited data

Results flagged for a closer look

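For the genes below the effect of 10 mg/L KClO4 differed between fish with vitamin C and fish without it, tested as the difference between both log2 fold changes by limma over 17778 genes. The effect was larger with vitamin C for genes of plasma proteins: c3-1 (difference 3.78), apoa2 (3.46), fgb (3.22), apoa1b (3.13), cp (3.62), tbt-bp1 (3.23) and apoeb (2.03). It was also larger for vmo1a (4.62), evpla (3.26) and COL21A1 (1.75). All of these genes were called with vitamin C, and their choice by a high fold change there favours a difference above 0. Levels without perchlorate also differed between the backgrounds for some of them. COL21A1 had 35.4, 36.7 and 64.9 counts with vitamin C alone, against 83.8, 59.8 and 107 in control libraries. For the called plasma protein genes cfbl, fga, c7b, c3-2 and c9 the difference did not pass (limma adjusted p from 0.0652 to 0.333). The difference was above 0 for keap1a (1.93), with a log2 fold change of 0.79 with vitamin C and -1.15 without it, and for ezh2 (0.96), with -0.32 with vitamin C and -1.28 without it. Neither keap1a nor ezh2 was called with vitamin C. Differences above 0 also passed for genes with only an identifier, among them ENSORLG00000029989 (7.06) and ENSORLG00000028583 (5.85). ENSORLG00000000623, called in opposite directions on the backgrounds, differed by 3.24. The difference was below 0 for slc12a3 (-4.99), krt18a.2 (-3.40) and dazl (-1.29). With 1 of the 12 libraries left out, the differences of tbt-bp1 and cp each failed in 11 of 12 cases, COL21A1 in 10, dazl and ezh2 in 9, fgb in 7, vmo1a and krt18a.2 in 5, apoa2 in 2 and apoa1b in 1. Those of c3-1, evpla, apoeb, keap1a, slc12a3 and the 3 unnamed genes passed in all 12.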

How the results depend on the processing

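The 48 genes higher with perchlorate plus vitamin C kept their call in the fits to only the 6 libraries compared, without the low dose, with edgeR and with DESeq2. With a pseudocount of 0.25 only 38 of the 48 kept it. With a pseudocount of 4, and with quantile normalization, 47 did. The counts moved with the estimate of spread, which the low dose libraries enter in the main fit. On the first principal component of all 15 libraries, low dose libraries 1, 2 and 3 lay at 137, 201 and 42.8. The libraries of every other group lay closer together on it. Only the libraries compared gave 197 higher and 18 lower genes, and the fit without the low dose gave 99 higher and 10 lower. Both settings used the same 12 libraries for the difference between the backgrounds, with 2838 genes above 0, 2217 below 0 and 51 called alike on both backgrounds. DESeq2 gave 170 higher, 10 lower, 1791 above 0, 1362 below 0 and 94 called alike. A mean of at least 50 gave 22 higher and 11 called alike, and quantile normalization gave 6 called alike. Scaling on high genes gave 594 above 0 and 669 below 0, so the excess above 0 turned round. Replicate numbers did not pair the libraries of perchlorate plus vitamin C with those of vitamin C alone. Deviations of same-numbered libraries correlated at -0.007, -0.003 and -0.060, under the bound of 0.1. Between perchlorate alone and control they correlated at 0.110, -0.197 and -0.058 for libraries 1, 2 and 3, and library 1 was above that bound. The fit with a replicate block gave 52 higher and 1 lower gene, with 746 differences above 0 and 376 below 0. With 1 library left out at a time there were 20 to 88 higher, 0 to 38 lower, 92 to 1263 above 0, 35 to 577 below 0 and 9 to 39 called alike. Leaving out perchlorate or control libraries, and the next 2 fits, were chosen after seeing the data. Without perchlorate plus vitamin C library 2 and the low dose the difference passed for 2177 genes above 0 and 1407 below 0. Without library 1 and the low dose there were 846 higher, 1345 lower, 2844 above 0, 2334 below 0 and 830 called alike. Leaving aside ar-alpha, ar, GPX4, hsd3b1, amh (ENSORLG00000005044) and ENSORLG00000024409, no gene named in the text changed direction while called in any of these fits. The cause of these shifts was not tested. With 3 libraries a group and a median standard error of 0.295 on the log2 scale, the smallest difference that passed was 1.55, and 18 of the 48 genes had a mean under 5 normalized read counts in the vitamin C libraries, where counting error is large.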

Other observations

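Further gene lists showed small differences between perchlorate plus vitamin C and vitamin C alone, with 0 genes called by limma in each. In the fit without the low dose libraries 1 lysosome gene was called lower, and without perchlorate plus vitamin C library 1 the heat shock list had 1 gene lower. Heat shock and folding genes had 6 of 79 higher and 23 lower without overlap, at a median log2 fold change of -0.15, and proteasome genes 2 of 46 higher and 13 lower, at -0.20. Genes of intraflagellar transport, which build cilia and sperm tails, had 2 of 54 higher and 21 lower, at -0.16. Lysosome and cathepsin genes had 14 of 64 higher and 11 lower, at 0.06, cholesterol and fatty acid genes 10 of 70 higher and 15 lower, at -0.08, and circadian genes 8 of 35 higher and 4 lower, at 0.08. Genes of p53 and cell death had 5 of 48 higher and 8 lower, at -0.10, and interferon and cytokine genes 8 of 47 higher and 4 lower, at 0.06. For comparison 14.9% of all genes tested were higher and 16.5% lower without overlap. When scaled on genes with high levels the medians of the cholesterol and p53 lists were 0.04 and 0.02.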
